A study of Mus musculus with 6 samples.

Results

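The genes examined here are the 5 that encode the protamines and transition proteins of the mouse, namely Prm1, Prm2, Prm3, Tnp1 and Tnp2. They were taken by symbol from gene tables that list 24411 genes, and all 5 were present and passed the filter on low counts, which left 17110 genes for testing. RNA was sequenced from whole frozen testes of C57BL/6 mice, a standard inbred strain, with 3 libraries from animals whose genotype is given as MRP5-/- and MRP9-/- (labelled DKO, for double knockout) and 3 from age-matched animals given as Wildtype (labelled WT). MRP5 and MRP9 are membrane transporters of the ABCC family, encoded by Abcc5 and Abcc12. The age of the animals and the design of the knockout alleles are not given in the sources used here. The labels list the libraries of a group as separate samples without saying that each is a separate animal, so p-values measure the spread between these samples.

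In elongating spermatids, most histones are removed from DNA and replaced first by transition proteins and then by protamines, small basic proteins that pack the sperm nucleus into a compact, transcriptionally silent form. Prm1 and Prm2 encode the protamines themselves, and the Prm2 product is made as a precursor that is trimmed after it binds DNA. Tnp1 and Tnp2 encode the transition proteins that occupy chromatin in between. Prm3 sits in the same gene cluster, but encodes a small acidic protein found in the cytoplasm of spermatids and not a DNA-packing protein. Their mRNAs are made in round spermatids and stored before they are translated. In whole testis, fewer cells of a type and less RNA per cell cannot be told apart.

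Prm3 fell in the libraries labelled DKO, to 0.197 of the labelled WT level per transcript length. In the main fit, on counts of all 6 libraries, no difference between the groups was detected for Prm1, Prm2, Tnp1 or Tnp2. That fit called 1 of the 5 genes at an adjusted p under 0.05 (edgeR quasi-likelihood test), in the lower direction. In other edgeR fits Tnp2 was called higher with a trend on transcript length and GC content removed (adjusted p = 0.0381). Prm1 was called lower without DKO replicate 2 (edgeR adjusted p = 0.0327). These fits called 3.44% and 3.9% of tested genes. In the main fit 10.8% of all tested genes were called, 5.75% higher and 5.1% lower in the libraries labelled DKO. The groups did not overlap for Prm3 alone among the 5 in CPM, the count scaled to a common library total,, against 35.9% of all tested genes without overlap.

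All 5 genes are on the minus strand. On GRCm38, the assembly that mm10 denotes, Tnp2 (chr16:10787935-10788655), Prm3 (chr16:10790508-10790914), Prm2 (chr16:10791377-10792105) and Prm1 (chr16:10796332-10796823) form a cluster of 8.89 kb. Only 462 bases separate Prm3 from Prm2. Tnp1 lies apart, at chr1:73015074-73015899. Prm3 has 1 exon in GENCODE M21 and its whole span of 407 bases is transcript. Prm1, Prm2, Tnp1 and Tnp2 are spliced, with transcripts of 400, 612, 426 and 550 bases in the deposited tables. No other annotated gene overlaps the 4 genes of the cluster, whereas Tnp1 is overlapped on the opposite strand by the noncoding gene 1700027A15Rik.

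The 100 bases before each RefSeq start are shown because Prm3 differed from genes that lie beside it. They are read 5′ to 3′ on the minus strand of GRCm38.p6, from RefSeq. Capitals mark matches on either strand to TGANNTCA, which covers the letters of cyclic AMP response elements such as those bound by the spermatid activator CREM, and to TATAA, the core of a TATA box.
Prm1: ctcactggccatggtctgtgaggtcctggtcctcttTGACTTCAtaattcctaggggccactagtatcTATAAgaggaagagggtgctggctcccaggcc
Prm2: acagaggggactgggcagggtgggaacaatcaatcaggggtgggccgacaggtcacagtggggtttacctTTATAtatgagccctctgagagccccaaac
Prm3: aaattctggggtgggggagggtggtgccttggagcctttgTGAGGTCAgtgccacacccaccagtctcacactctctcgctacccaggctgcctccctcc
Tnp1: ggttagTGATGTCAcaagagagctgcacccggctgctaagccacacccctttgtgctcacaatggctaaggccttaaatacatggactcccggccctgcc
Tnp2: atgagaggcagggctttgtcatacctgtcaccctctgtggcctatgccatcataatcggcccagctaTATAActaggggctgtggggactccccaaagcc

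These stretches occupy chr16:10796824-10796923 (Prm1), chr16:10792106-10792205 (Prm2), chr16:10790915-10791014 (Prm3), chr1:73015900-73015999 (Tnp1) and chr16:10788656-10788755 (Tnp2). TGANNTCA begins at -64 in Prm1, -60 in Prm3 and -94 in Tnp1, counted from the start, and is not in these letters of Prm2 or Tnp2. The same letters occur in 6.34% of all 32851 RefSeq promoter stretches of this length. TATAA begins at -32 in Prm1 and -33 in Tnp2. In Prm2 it is matched only on the opposite strand, where the printed letters from -30 read TTATA. It is not in these letters of Prm3 or Tnp1, and occurs on either strand in 10.2% of all stretches. The full palindrome TGACGTCA, a special case of TGANNTCA, was in none of the 5 and in 1.15% of all. The stretch before Prm3 held 62% G and C bases, against 54% to 56% in the other members.

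Prm2, the more abundant protamine transcript, ranked first of all 24411 genes in every library in TPM, a level scaled by transcript length and by the library's total. It stood at 38304, 42073 and 39042 TPM in the libraries labelled DKO (replicates 1, 2 and 3) and at 40795, 37181 and 41311 TPM in those labelled WT. The groups overlapped, with means of 39806 ± 1997 and 39762 ± 2251 TPM (SD, n = 3 each). In the edgeR fit on counts its log2 fold change, labelled DKO over labelled WT, was -0.11 (SE 0.0925, 95% interval -0.32 to 0.0892, adjusted p = 0.426).

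Prm1, the protamine shared by mammals, ranked next in every library. Its level was 30654, 34242 and 30173 TPM in the libraries labelled DKO and 31373, 27984 and 29851 TPM in those labelled WT, again overlapping. The log2 fold change on counts was -0.22 (SE 0.107, 95% interval -0.45 to 0.0191; edgeR adjusted p = 0.191). Without DKO replicate 2, which had the highest Prm1 level of its group in both TPM and CPM, the value was -0.37 and passed the threshold (edgeR adjusted p = 0.0327), where 3.9% of tested genes were called. The direction depended on the unit: the group mean was lower in labelled DKO libraries in CPM (2845 ± 471 against 3305 ± 159, SD, n = 3 each) and higher in TPM (31690 ± 2224 against 29736 ± 1697).

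Tnp1, which encodes the smaller transition protein, ranked next below Prm1 in every library, at 22614, 23986 and 23452 TPM in the libraries labelled DKO and 21841, 21479 and 21189 TPM in those labelled WT. In TPM all 3 labelled DKO libraries were above all 3 labelled WT libraries, and in CPM the groups overlapped (2451 ± 294 against 2730 ± 30.9, SD, n = 3 each). The share of all tested genes without overlap in TPM was not counted. In limma on log2(TPM + 1) the Tnp1 difference was 0.12 and did not pass the threshold (adjusted p = 0.504). The log2 fold change on counts was -0.16 (SE 0.0898, 95% interval -0.35 to 0.0413; edgeR adjusted p = 0.257). The antisense gene 1700027A15Rik was lower in the libraries labelled DKO (log2 fold change -0.47, edgeR adjusted p = 0.0237), at 2683, 2736 and 2529 TPM against 3013, 2872 and 3128 TPM. That fold change is on counts and does not account for fragment length, which differed between the groups. Strand handling is not stated. The expected counts of both genes were whole numbers in every library, so the estimates hold no fractional split of fragments between them. How fragments of the shared stretch were assigned was not tested.

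Tnp2, which encodes the zinc-binding transition protein, ranked next below Tnp1 in every library. Its level was 12448, 13451 and 11103 TPM in the libraries labelled DKO and 11407, 9849 and 10827 TPM in those labelled WT, with overlap between groups. The log2 fold change on counts was 0.0521 (SE 0.101, 95% interval -0.17 to 0.27; edgeR adjusted p = 0.760). It passed the threshold with each library's trend on transcript length and GC content removed, at 0.43 (edgeR adjusted p = 0.0381). In that fit 3.44% of tested genes were called, 1.82% higher and 1.62% lower.

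Prm3, the acidic spermatid protein gene, stood at 329, 382 and 235 TPM in the libraries labelled DKO and at 1355, 2124 and 1312 TPM in those labelled WT. Every labelled WT library was thus at least 1312 TPM and every labelled DKO library at most 382 TPM. The underlying expected counts were 1158, 1726 and 1480 in the deeper labelled DKO libraries and 4084, 8268 and 4694 in the labelled WT libraries. All were whole numbers, as were those of the other 4 members, so the estimates hold no fractional assignment for these genes.

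The mean level of Prm3 was 315 ± 74.5 TPM in libraries labelled DKO and 1597 ± 457 TPM in those labelled WT (SD, n = 3 each), a ratio of 0.197. On counts the log2 fold change was -2.64 (SE 0.222, 95% interval -3.13 to -2.16; edgeR adjusted p = 0.000763), and lower in 3 of 3 labelled DKO libraries. Prm3 ranked 2 by p and 3 by size of decrease among the 17110 tested genes. A log2 fold change of -2 or lower was seen in 0.0292% of them. In rank of abundance, Prm3 was at positions 73, 31 and 77 in the labelled WT libraries and at 558, 453 and 813 in the labelled DKO libraries.

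**Figure D1:**
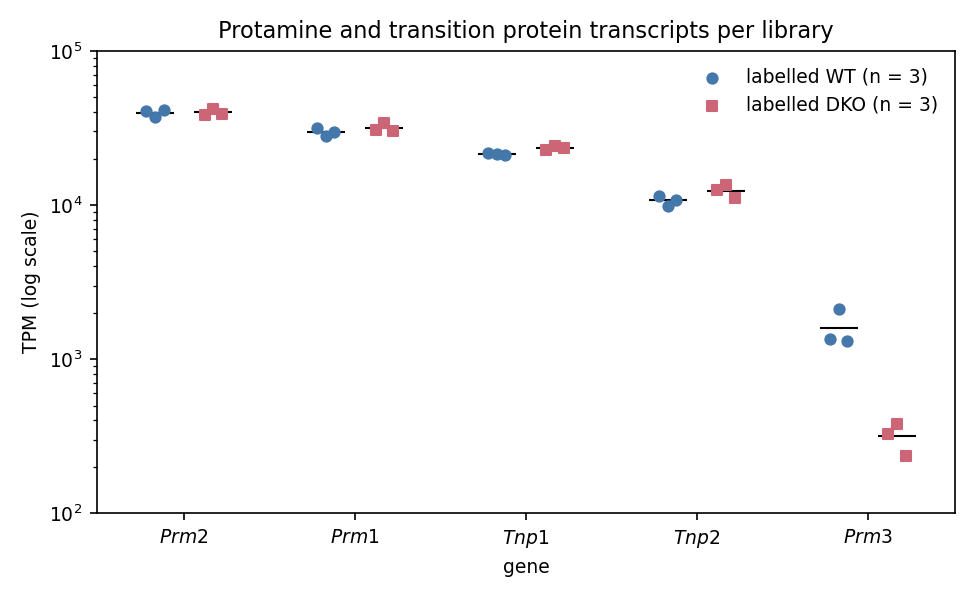
TPM (log axis) of the 5 genes in each library, with circles for labelled WT, squares for labelled DKO and lines for group means (n = 3 each). Prm1, Prm2, Tnp1 and Tnp2 sit within 9849 to 42073 TPM in both groups, whereas Prm3 lies between 1312 and 2124 TPM in labelled WT and between 235 and 382 TPM in labelled DKO libraries.

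Relative spread within groups was wider for Prm3 than for the others. Its coefficient of variation in TPM was 23.6% among libraries labelled DKO and 28.6% among those labelled WT. For the other 4 members it ran from 1.52% for Tnp1 in labelled WT to 9.55% for Tnp2 in labelled DKO libraries. The highest Prm3 value came from WT replicate 2, and without that library the log2 fold change was -2.39 (edgeR adjusted p = 0.000254). The lowest came from DKO replicate 3, without which it was -2.46 (edgeR adjusted p = 0.000398). Prm3 was called in all 6 fits that each left out 1 library, with values from -2.91 to -2.39.

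Depth and fragment length differed between the groups. Total expected counts ran from 42673615 to 67131103 in libraries labelled DKO and from 26753721 to 31745969 in those labelled WT. With every library thinned to the smallest total, Prm3 was at -2.68 (edgeR adjusted p = 0.00029), Prm1 at -0.21, Prm2 at -0.11, Tnp1 at -0.16 and Tnp2 at 0.0502, close to their values at full depth. The mean fragment length ran from 275 to 317 bases and from 230 to 258 bases (exact permutation test, two-sided, p = 0.1 for each measure, the smallest that 3 against 3 allows). A longer fragment has fewer places to start in a short transcript. The effective length of Prm3, which counts those places, averaged 133 bases in labelled DKO libraries and 174 bases in labelled WT libraries, a ratio of 76.3%, and those of the other members were 75.7% to 86.9% of the labelled WT value. Among the 562 tested genes with transcripts of 400 to 650 bases, a range set after the values were seen, the median log2 fold change was -0.21, and 25.3% were called, 20.6% lower and 4.63% higher.

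Accounting for effective length took Prm3 to -2.28 on the log2 scale (edgeR adjusted p = 0.0012), while the median of the 562 short genes moved to 0.0081. In that fit 9.71% of all tested genes were called, 5.59% higher and 4.12% lower. With the length and GC trend removed, Prm3 was at -2.16 (edgeR adjusted p = 0.00216). In each of these fits, and on counts alone, no other gene of that length range fell further than Prm3. With the mean fragment length as a covariate, Prm3 was at -2.29 but did not pass the threshold (edgeR adjusted p = 0.685, unadjusted p = 0.000335). That fit called 1 gene, or 0.00584% of those tested, and every labelled DKO library had longer fragments than every labelled WT library.

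The other 4 members changed sign or size with these settings. Prm1, Prm2 and Tnp1 were below 0 on counts and above 0 with the effective-length offset, at 0.14, 0.0463 and 0.16, none past the threshold (edgeR adjusted p = 0.362, 0.771 and 0.165). Tnp2 was above 0 in both, at 0.0521 on counts and 0.25 with the offset (edgeR adjusted p = 0.140).

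**Figure D2:**
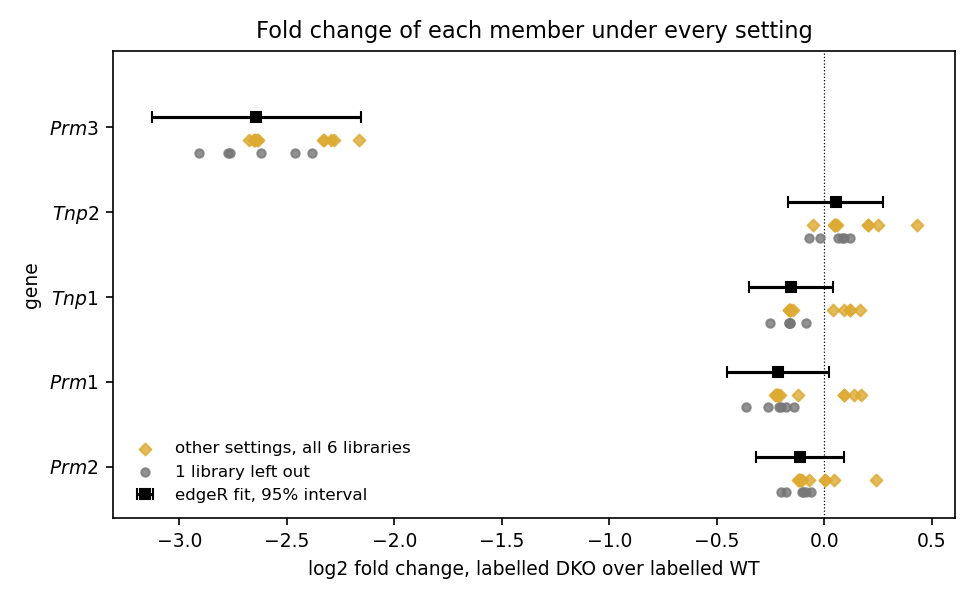
Log2 fold change of each gene (labelled DKO over labelled WT): black squares are the edgeR fit with its 95% interval, diamonds the other settings with all 6 libraries, and grey circles the fits without 1 library. Prm3 lies between -2.91 and -2.16 throughout, and the other genes lie on both sides of 0.

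Ratios between members were compared in TPM, since they set genes of different length against each other. The level of Prm3 was 0.00859, 0.00908 and 0.00602 of that of Prm2 in the libraries labelled DKO and 0.0332, 0.0571 and 0.0318 in those labelled WT. The groups did not overlap (log2 difference -2.33, exact two-sided permutation p = 0.1, adjusted over 5 quantities 0.167). The Prm1 to Prm2 ratio was 0.800, 0.814 and 0.773 in labelled DKO and 0.769, 0.753 and 0.723 in labelled WT libraries. It was higher in 3 of 3 labelled DKO libraries by 0.0891 on the log2 scale (exact permutation p = 0.1, adjusted 0.167), and its direction turned in CPM, to -0.11.

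The protamine to transition protein ratio, Prm1 and Prm2 summed over Tnp1 and Tnp2 summed, was 2.003 ± 0.0359 in labelled DKO and 2.16 ± 0.0722 in labelled WT libraries (SD, n = 3 each). These groups did not overlap either (log2 difference -0.11, exact permutation p = 0.1, adjusted 0.167). The Tnp1 to Tnp2 ratio overlapped, at 1.90 ± 0.181 and 2.02 ± 0.143 (exact permutation p = 0.5, adjusted 0.6). Summed, the 5 genes held 10.7% ± 0.575 of all TPM in labelled DKO and 10.3% ± 0.421 in labelled WT libraries (SD, n = 3 each; exact permutation p = 0.6, adjusted 0.6).

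**Figure D3:**
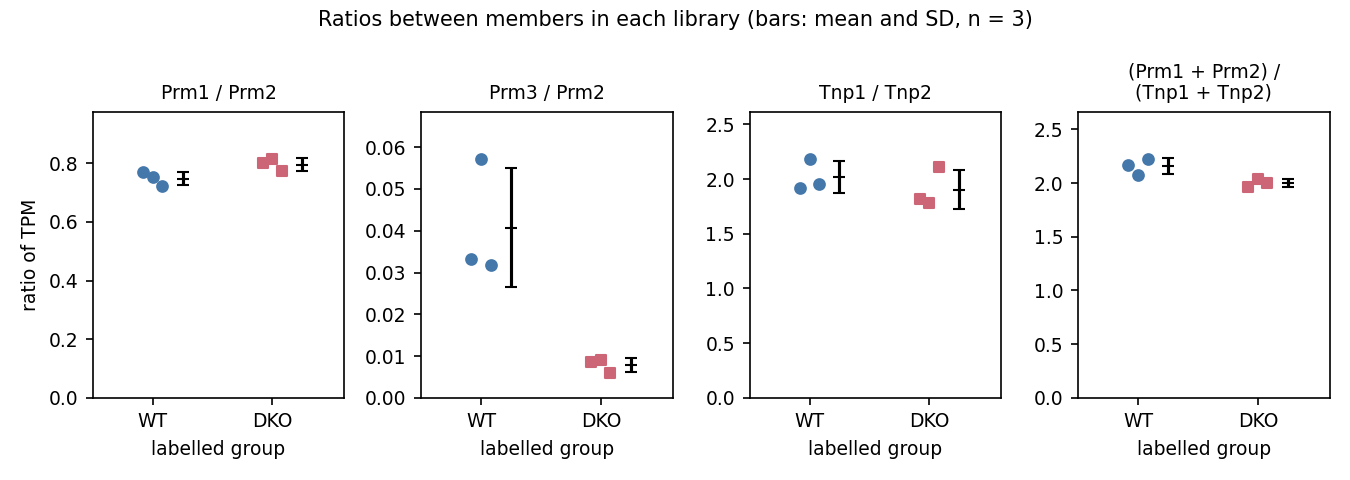
Ratio of TPM between members in each library (circles labelled WT, squares labelled DKO) with mean and SD beside the points (n = 3). The Prm3 to Prm2 ratio separates the groups most, with 0.00602 to 0.00908 in labelled DKO against 0.0318 to 0.0571 in labelled WT libraries.

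The neighbourhood of the cluster was examined because Prm3 moved without the genes on either side. Within 500 kb there were 15 other tested genes, of which 0 were called by edgeR, against 10.8% of all tested genes. An unadjusted p under 0.05 was seen for 7 of the 15, as for 31.7% of all tested genes. DESeq2, which called 13.8% of all genes, called 2 of the 15, Litaf and Rsl1d1. The log2 fold changes of the 15 ran from -0.67 (Tvp23a) to 0.39 (Rsl1d1), with a median of -0.0931. The nearest, Socs1, which encodes an inhibitor of cytokine signalling, lies just beyond Tnp2. It was at 4.01, 3.58 and 2.14 TPM in labelled DKO and 4.98, 4.50 and 4.31 TPM in labelled WT libraries, a log2 fold change of -0.50 that did not pass the threshold (SE 0.219; edgeR adjusted p = 0.141). Socs1, Tvp23a, Rsl1d1 and Litaf are named for their position, as the ends of the range or for the DESeq2 call, after their values were seen. On the same chromosome, Abcc5 lies 9.53 Mb from the cluster, and Abcc12 is on chromosome 8.

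**Figure D4:**
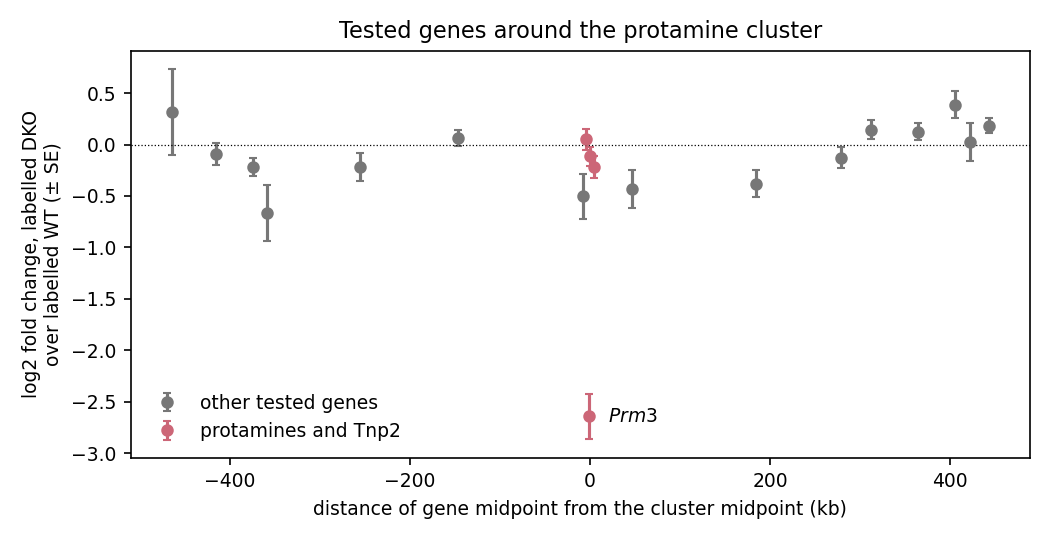
Log2 fold change with its SE for every tested gene within 500 kb of the cluster, by distance of the gene's midpoint from the cluster's midpoint. Prm3 is at -2.64, while the other tested genes and members lie between -0.67 and 0.39.

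The targeted genes were read as a check of the labels. Abcc12 was lower in the libraries labelled DKO, at 25.5 to 27.4 TPM against 55.7 to 58.4 TPM (log2 fold change -1.02, edgeR adjusted p = 0.000307). Abcc5 was not lower, at 4.48 to 4.84 TPM against 3.28 to 3.96 TPM (log2 fold change 0.56, edgeR adjusted p = 0.0225). With the allele design not given, the level of Abcc5 cannot decide whether the MRP5-/- label holds, so groups are named by their labels. The Abcc5 call was lost without DKO replicate 1, WT replicate 2 or WT replicate 3 (edgeR adjusted p = 0.0977, 0.0526 and 0.0946), with fragment length as a covariate (0.999) and in limma on log2(TPM + 1), where the difference was 0.27 (adjusted p = 0.107), or log2(TPM + 0.1), where it was 0.33 (adjusted p = 0.105). It stayed above 0 in each of these. Whole-gene counts do not show whether an exon is missing.

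Among the genes that carry out the exchange of histones for protamines, 4 of 30 tested were called higher and 2 lower in the libraries labelled DKO. The shares of all tested genes were 5.75% higher and 5.1% lower. The list median was 0.11 on the log2 scale, beside -0.0042 over all tested genes. Cdyl, a chromatin protein that binds methylated histone H3, was higher by 0.51 (SE 0.128; edgeR adjusted p = 0.036). Psme4, the proteasome activator that takes part in the breakdown of acetylated histones, rose by 0.39 (edgeR adjusted p = 0.0377). Top2b, a topoisomerase that relieves DNA supercoils, rose by 0.43 (edgeR adjusted p = 0.0408). Kdm3a, a histone H3 demethylase that acts at the protamine and transition protein genes, rose by 0.28 (edgeR adjusted p = 0.044).

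The lower pair were both testis histones of low level. Hist1h2aa, a testis form of H2A, had 6.91 ± 0.814 against 10.2 ± 1.05 TPM (SD, n = 3 each; log2 fold change -0.81, edgeR adjusted p = 0.0398). H2afb3, a short H2A variant with near-identical copies, had 5.41 ± 1.07 against 7.91 ± 1.47 TPM (log2 fold change -0.98, edgeR adjusted p = 0.0498). H2afb3 rested on 14 to 24 counts a library, all whole numbers, so no fractional assignment to its copies is recorded. At so low a count, and with such copies, its value is uncertain. The spermatid linker histone genes H1fnt and Hils1 were at 0.15 and 0.22 and did not pass the threshold (edgeR adjusted p = 0.262 and 0.103). With the effective-length offset 5 genes of this list were called, all higher, beside 5.59% higher and 4.12% lower of all tested genes. With the length and GC trend removed 2 were called, both higher, beside 1.82% and 1.62%.

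Of 11 regulators of transcription of these genes, 0 were called by edgeR, 6 had an unadjusted p under 0.05 and 4 were called by DESeq2 (Fhl5, Tbpl1, Gtf2a1l and Rfx2). Over all genes the shares were 10.8%, 31.7% and 13.8%, in that order. The median was 0.18, with 9 values above 0. Crem, the activator of round spermatid genes, was at 134 ± 5.70 against 125 ± 4.71 TPM (SD, n = 3 each; log2 fold change 0.16, edgeR adjusted p = 0.179). Its coactivator Fhl5 was at 0.34 and the transcription factor Rfx2 at -0.29 (edgeR adjusted p = 0.053 and 0.052). Crem, Fhl5, Rfx2 and the linker histones were chosen for their role after their values were seen.

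Of 15 genes that store or translate spermatid mRNA, 2 were called higher and 0 lower, beside 5.75% and 5.1% of all tested genes. The list median was 0.12. The called genes were Ddx4, the germ cell RNA helicase (log2 fold change 0.41, edgeR adjusted p = 0.0292), and Papolb, a cytoplasmic poly(A) polymerase of spermatids (0.42, edgeR adjusted p = 0.0452). Ybx2, which binds and stores protamine mRNA, was at 0.20 and did not pass the threshold (edgeR adjusted p = 0.124), and was named for its role after its value was seen.

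Other transcripts of late spermatids gave 4 of 22 called higher and 1 lower, beside 5.75% and 5.1% of all tested genes. The list median was 0.0303. The higher ones were Akap3 and Akap4, anchoring proteins of the fibrous sheath, Hmgb4, a testis high-mobility-group protein, and Cabs1, a calcium-binding spermatid protein. Their log2 fold changes were 0.52, 0.35, 0.39 and 0.42 (edgeR adjusted p = 0.0299, 0.0341, 0.0353 and 0.0377). Gapdhs, the sperm glycolytic enzyme, was the lower one, at -0.43 (edgeR adjusted p = 0.04997). Of 17 round spermatid transcripts, 1 was called, against 10.8% of all tested genes, and the median was 0.0268. The called gene was Izumo3, an acrosome membrane gene, at 0.56 (edgeR adjusted p = 0.0269).

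**Figure D5:**
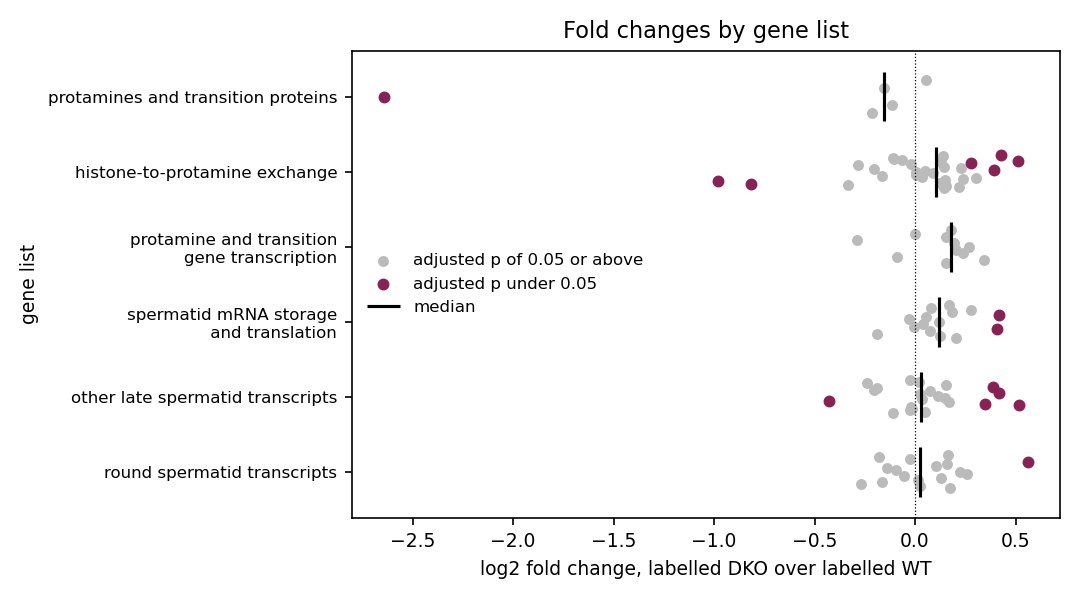
Log2 fold changes (labelled DKO over labelled WT) of the tested genes in the member list and the 5 pathway lists, with dark points for genes at an adjusted p under 0.05 and bars for medians. Prm3, at -2.64, lies below every other gene plotted, and the list medians lie between -0.16 and 0.18.

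The calls in these pathway lists depended on which libraries were used. Of the 14 genes called, 0 remained past the threshold in edgeR without DKO replicate 1, without WT replicate 2 or without WT replicate 3, and 4 without DKO replicate 2, although all 14 had an unadjusted p under 0.05 in each of these fits. Over all tested genes these fits called 0.0643%, 0.105%, 0.0409% and 3.9%, in that order. Without DKO replicate 3 and without WT replicate 1 the number was 11 and 10, where 17.8% and 12.6% of all tested genes were called. It was 10 with the effective-length offset, 3 with the length and GC trend removed (Akap3, Hmgb4 and Izumo3) and 0 with fragment length as a covariate. The direction was kept for all 14 in every fit that left out a library. The 14 were picked by their call with all 6 libraries, most of which each of these fits shares. Kept directions and low unadjusted p-values there are therefore no independent support. With fragment length as a covariate, 10 of the 14 kept their direction and 0 had an unadjusted p under 0.05. The list medians moved with the setting too. With the length and GC trend removed they were 0.0760 (histone exchange), 0.0472 (transcription), 0.0191 (mRNA storage), 0.169 (late) and 0.0754 (round). Over all genes that median was -0.0193. With the effective-length offset they were 0.11, 0.15, 0.11, 0.0585 and 0.11 in the same order, beside -0.0024.

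Markers of the other cells of the testis were read in the same fit. Of 8 spermatocyte markers 3 were higher, among 8 Sertoli markers 2 were lower and 3 of 7 Leydig markers were lower. Over all tested genes 5.75% were called higher and 5.1% lower. With the effective-length offset 2 spermatocyte markers were higher, and 2 Sertoli and 2 Leydig markers lower, beside 5.59% and 4.12% of all. With the length and GC trend removed these were 2, 1 and 2, beside 1.82% and 1.62%. The spermatocyte median went from 0.34 on counts to 0.0504 with that trend removed. On counts, none of 6 spermatogonia, 6 macrophage, 5 myoid and endothelial markers, or the 1 epididymis marker tested, was called by edgeR. With the offset 1 myoid and endothelial marker was called lower. At an unadjusted p under 0.05 these 4 lists held 0, 2, 3 and 0 genes, against 31.7% of all tested genes, and DESeq2 called 2 in all, Acta2 and Myh11 of smooth muscle, against 13.8%. Summed TPM of the Leydig list ran from 845 to 1502 in labelled DKO and 1482 to 3105 in labelled WT libraries. Most of it was Insl3, at 582 to 1193 and 1215 to 2576 TPM. Insl3 was not called with the offset (edgeR adjusted p = 0.0517) or with the trend removed (0.135). On counts, 6 Leydig markers were below 0 and 1 above. The Sertoli list summed to 1031 to 1211 and 1137 to 1497 TPM, of which Clu held 744 to 945 and 832 to 1139. The spermatocyte list summed to 658 to 836 and 537 to 620 TPM. The summed spermatid lists overlapped, at 32724 to 33098 and 30245 to 33762 TPM for late and 7251 to 7429 and 7107 to 7695 TPM for round spermatid transcripts. The epididymis list summed to at most 3.99 TPM, with Lcn8 listed at 0. The part of these differences in the results above was not tested.

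The patterns of the members over the 6 libraries were set beside those of 15074 other tested genes with an average of at least 1 CPM, by Pearson's r of log2(CPM + 1). All these values share the libraries, their depth and their fragment lengths, and r is a description. Prm3 was most like Apex1, a DNA repair endonuclease (r = 0.998), and Dnmbp (0.997). Tnp2 was most like Spata19, a mitochondrial protein of late spermatids (r = 0.9996), 4930520O04Rik (0.985) and Eif2b5 (0.982). Prm1 was most like Tle3 (0.996), Ctbp2 (0.996) and Gpx4 (0.993), Prm2 like Thoc6 (0.992), Mepce (0.986) and Ttc24 (0.986), and Tnp1 like Scamp4 (0.996), Slc39a3 (0.991) and Cox7a2 (0.988). Among the members, Prm1 was close to Prm2 (r = 0.938) and to Tnp1 (0.942). Prm3 had r of 0.680 with Prm1, 0.683 with Tnp1, 0.481 with Prm2 and -0.12 with Tnp2.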

How the data were processed

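RNA from 6 testis libraries was sequenced. The authors deposited 1 gene table per library, with estimated (expected) counts, TPM and FPKM, per the file headers. Per the submitters' processing notes, STAR 2.7.0f, RSEM 1.2.31, DESeq2 1.12.3 and mm10 were used; strand handling and filters are not given in the sources used here. Of the deposited expected counts, 93.2% were whole.

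Counts were rounded, filtered with filterByExpr, scaled by TMM and tested with edgeR 4.0.16 (quasi-likelihood, genotype only), with Benjamini-Hochberg adjustment over 17110 genes. Deposited TPM served levels and ratios, and deposited FPKM an alternative for ratios. CPM is TMM-scaled. The fit was also run on counts simulated with known changes but no shift with transcript length, so that run does not bear on such a shift in short genes. Alternatives used DESeq2 1.42.0, limma 3.58.1 and mgcv 1.9.3. GC content was found for 97.8% of genes. Mean fragment length came from the deposited lengths of genes above 3000 bases, as the median excess of length over effective length, plus 1. Named genes were the members, both targets, up to 4 called genes per list and direction by p, called neighbours, and 3 most-alike genes per member, of which 1 is not reported here. Members and lists were chosen with earlier results of these data known. All 6 libraries were used; replicate numbers follow deposition order.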

Additional observations from a re-analysis of the deposited data

How the results depend on the processing

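Prm3 stayed below 0 in every fit run and past the threshold in all but 1: with the mean fragment length as a covariate it was at -2.29. Its values without 1 library ran from -2.91 to -2.39. Prm1, Prm2 and Tnp1 turned above 0 with the effective-length offset (0.14, 0.0463 and 0.16), with the length and GC trend removed (0.17, 0.24 and 0.0892), with limma on log2(TPM + 1) (0.0911, 0.0020 and 0.12) and with limma on log2(TPM + 0.1) (0.0911, 0.0020 and 0.12). With the covariate Tnp1 was at 0.0403 and Tnp2 at -0.0522. Tnp2 reached 0.43 and passed the threshold with the trend removed. Without 1 library, Prm1 ran from -0.37 to -0.14, Prm2 from -0.20 to -0.0625, Tnp1 from -0.25 to -0.0845 and Tnp2 from -0.0712 to 0.12. In CPM the Prm1 to Prm2 difference turned to -0.11 and that of the summed level to -0.13. The covariate put Cdyl at -0.0345, Top2b at -0.0748, Papolb at -0.11 and Cabs1 at -0.0503, where they had been above 0. The cause of these changes was not tested.

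Over all genes, 1856 were called, 984 higher and 872 lower. The trend removal called 579 (306 and 273), the covariate 1 (0 and 1), DESeq2 2921 (1675 higher), limma on log2(TPM + 1) 735 (279 and 456), limma on log2(TPM + 0.1) 947 (370 and 577), and an adjusted p under 0.01 left 7 (0 and 7). Without 1 library the count ran from 7 to 3039, higher from 0 to 1904 and lower from 7 to 1135. The low counts were 7 without WT replicate 3, 11 without DKO replicate 1 and 18 without WT replicate 2, with 4317, 3566 and 3787 genes at an unadjusted p under 0.05. No paired analysis was possible because the labels give no shared number, litter or day across the groups.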
